A study of Mus musculus with 6 samples.

Results

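Genes of the motile cilium were followed in mouse lungs that make the type 2 cytokine IL13 in the airway. The 40 genes were taken by symbol from a list that runs from the regulators of ciliated cells to the parts of the beating axoneme and the transport machinery that builds it. All 40 were found on the array among 18193 genes, 2 of them (Dnai1 and Dnai2) under the older symbols Dnaic1 and Dnaic2. Lungs of 2 IL13-transgenic and 4 wild-type mice were measured, with 1 Affymetrix array for each animal. The transgenic animals carry CC10-rtTA-IL13, in which a club cell promoter, that of CC10, drives the doxycycline-dependent activator rtTA that turns on IL13. Animals of both genotypes were C57BL/6, 6 to 10 weeks old, and had doxycycline at 2 mg/mL in their water for 7 days before the left upper lobe was removed. Probe set values of Il13 itself were 4.24 and 4.09 in transgenic lungs, against 3.84, 3.72, 4.03 and 3.79 in wild-type lungs. They differed by 0.32 ± 0.12 (adjusted p = 0.11, limma), and whether that probe set reads the transgene was not tested. Alveolar type II markers, which define lung tissue, averaged between 12.66 and 12.88 in all 6 arrays. Values are log2 intensities, so a difference of 1 is a doubling.

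Motile cilia are hair-like organelles that beat in a wave and carry mucus out of the airway. Each is built on an axoneme, a ring of microtubule doublets around a central pair, in which dynein arms pull and radial spokes and the central pair set the rhythm. Intraflagellar transport carries the parts along the growing axoneme, and it serves non-motile primary cilia of other cells too. In the airway, multiciliated cells lie among club and goblet cells. The lung lobe was measured whole, so fewer ciliated cells and less RNA per ciliated cell cannot be told apart.

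Most motile cilium genes had a somewhat lower mean in IL13-transgenic lungs. The difference, transgenic minus wild-type, was below 0 for 39 of 40, with a median of -0.44, and over all genes it was below 0 for 50.8%, with a median of -0.0047. With transgenic replicate 1 left out, the median of the 40 was -0.23 and 35 differences were below 0. With wild-type replicate 2 left out, the median was -0.28 and 36 were below 0. The largest falls were those of Mlf1 and Tppp3. In limma's moderated test, with p-values adjusted over all 18193 genes and a threshold of 0.05, 6 members fell (Tppp3, Mlf1, Bbs4, Ccdc39, Ift122 and Rfx3), 0 rose and 34 did not pass. Over all genes, 19.0% passed, 10.5% as lower and 8.43% as higher. The 6 members make up 15.0% of the 40, not far from that share of all genes. At an unadjusted p under 0.05, 11 members were lower and 0 higher, against 3226 lower and 2604 higher of all 18193 genes. For 16 of the 40 both transgenic values lay below all 4 wild-type values, which was the case for 22.0% of all genes, and for 0 they lay above (19.7% of all genes). Fewer members passed when either transgenic array was left out, and fewer of all genes passed then too. With transgenic replicate 2 left out, the median of the 40 was -0.54 and all 40 differences were below 0. Leaving out wild-type replicate 4 gave 10 members past the threshold, with Enkur, Cdhr3, Ift88 and Tekt1 added. Over all genes 3558 passed without that array and 3448 with all 6.

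**Figure D1:**
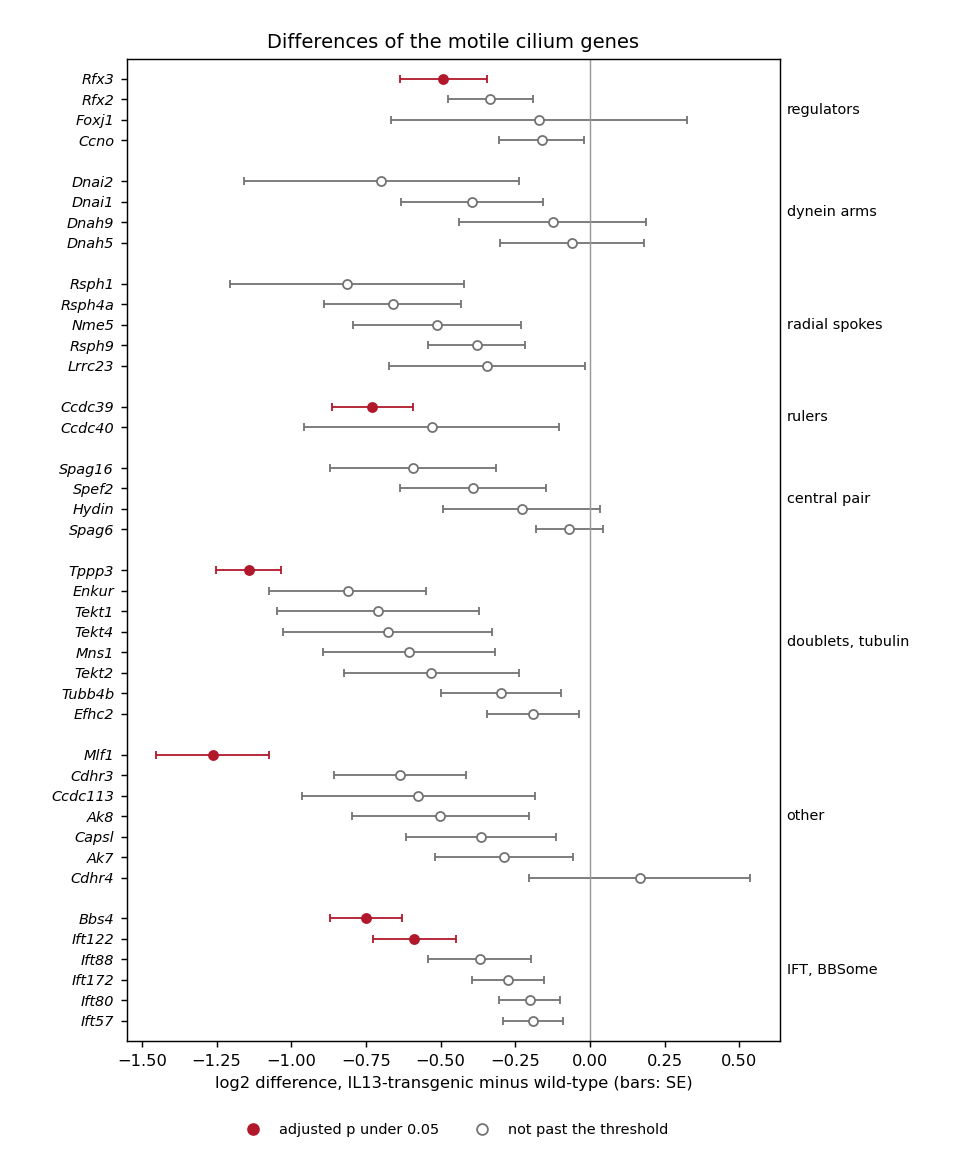
Log2 difference of each motile cilium gene, IL13-transgenic minus wild-type (x axis), with the genes grouped by role down the page and bars of 1 SE. Filled points are the 6 genes past the threshold, and all points but that of Cdhr4 (0.17) lie left of 0.

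Among the regulators, Foxj1, the transcription factor that commands motile cilium formation, did not pass. Its values were 6.12 and 6.65 in transgenic lungs, against 6.16, 7.88, 6.35 and 5.83 in wild-type lungs, which are given here and below from replicate 1 to 4. The means differed by -0.17 ± 0.50 (SE, n = 2 and 4, adjusted p = 0.85, limma). The wild-type values enclosed both transgenic ones, and wild-type replicate 2 was highest by far. Rfx3, a transcription factor that works with Foxj1 and also acts in primary cilia, fell. It was 6.92 and 6.97 in transgenic lungs, against 7.27, 7.29, 7.45 and 7.72 in wild-type lungs. The groups did not overlap, and the difference was -0.49 ± 0.15 (adjusted p = 0.048), a 1.41-fold fall. The call was lost when any of 4 arrays was left out, transgenic replicate 1 (adjusted p = 0.22), transgenic replicate 2 (0.16), wild-type replicate 1 (0.06) or wild-type replicate 3 (0.10). Its relative Rfx2 differed by -0.33 ± 0.14 (adjusted p = 0.15). Ccno encodes a cyclin-like protein needed to multiply centrioles in multiciliated cells. It was 4.30 and 4.39 in transgenic arrays, against 4.68, 4.63, 4.47 and 4.25 in wild-type arrays (difference -0.16 ± 0.14, adjusted p = 0.48).

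RFX factors bind a DNA word called the X-box, and Foxj1 is a forkhead factor, so sequences around the start of the members are shown here. RefSeq's promoter table (GRCm38.p6, from 250 bases before to 50 after the start) held 36 windows for 33 of the 40 genes. They were searched on both strands for 1 form of the X-box (GT, any 2 bases, CC, any 3 bases, G, any base, AAC) and for the forkhead word TGTTTAC. The X-box letters were in 7 windows (19.4%), against 2.17% of all 32851 promoter windows. The other motile axoneme and assembly genes had them in 9 of 59 windows, and the other transport and BBSome genes in 5 of 33. The forkhead word was in 2 windows, those of Mlf1 and Ak7 (5.56%, against 3.65% of all windows). A match shows only that the letters are there. The matches are given below for their likeness to each other, with the fixed letters of the word in capitals and each read in the direction of the word. No window held both words. The Bbs4 match lies after the start of the gene (bases 24 to 37), as does 1 of the 2 Tekt4 matches (1 to 14). The Enkur match spans the start (-12 to 2).
Spag16: GTtgCCgtaGtAAC
Enkur: GTttCCttaGcAAC
Hydin: GTtgCCacaGcAAC
Ift57: GTcaCCacgGcAAC
Ccno: GTcaCCgtgGcAAC
Bbs4: GTcgCCcggGaAAC
Tekt4: GTgtCCtggGaAAC
Tekt4 (downstream match): GTtgCCtaaGgAAC

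Of these genes Bbs4 fell and the other 6 did not pass. Rfx3, Ccdc39 and Mlf1 had a window without the X-box letters, and Tppp3 and Ift122 had none in the table. The upstream bases of 3 members show where the words lie: Spag16 as an axoneme gene, Ift57 as a transport gene and Mlf1 as the gene with the largest fall. All 3 lie on the plus strand, and capitals mark the match. In Spag16 (chr1:69826720-69826969) the word runs from base -103 to -90, counted from the start of the gene. In Ift57 (chr16:49699044-49699293) it runs from -87 to -74 and is read from the opposite strand, so the capitals show the other strand of the match above. In Mlf1 (chr3:67373847-67374096) the forkhead word runs from -116 to -110.
Spag16: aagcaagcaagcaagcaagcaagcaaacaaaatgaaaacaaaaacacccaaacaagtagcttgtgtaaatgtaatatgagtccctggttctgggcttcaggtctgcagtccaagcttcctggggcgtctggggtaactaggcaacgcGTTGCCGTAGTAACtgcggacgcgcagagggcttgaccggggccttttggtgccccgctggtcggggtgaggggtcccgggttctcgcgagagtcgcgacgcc
Ift57: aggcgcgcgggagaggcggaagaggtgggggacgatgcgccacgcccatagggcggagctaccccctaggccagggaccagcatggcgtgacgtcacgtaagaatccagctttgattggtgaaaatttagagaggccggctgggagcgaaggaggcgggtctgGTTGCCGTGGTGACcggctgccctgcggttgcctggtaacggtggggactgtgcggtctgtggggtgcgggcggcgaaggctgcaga
Mlf1: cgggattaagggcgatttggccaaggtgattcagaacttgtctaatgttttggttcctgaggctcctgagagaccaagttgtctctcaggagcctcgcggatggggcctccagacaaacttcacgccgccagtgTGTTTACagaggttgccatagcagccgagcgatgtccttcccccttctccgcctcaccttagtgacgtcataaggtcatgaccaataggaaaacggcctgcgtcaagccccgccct

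None of the 4 genes of the outer dynein arm, the motor of the beat, passed, and at an unadjusted p under 0.05 the count was also 0 (limma). Dnai2, an intermediate chain, was 4.03 and 5.42 in transgenic arrays, against 5.29, 6.37, 5.16 and 4.88 in wild-type arrays. Transgenic replicate 1 lay below all other arrays and transgenic replicate 2 within the wild-type range (difference -0.70 ± 0.46, adjusted p = 0.34). The second intermediate chain gene, Dnai1, differed by -0.40 ± 0.24 (adjusted p = 0.29). Dnah5, a heavy chain gene, was 4.30 and 4.80 in transgenic arrays, against 4.42, 5.08, 4.70 and 4.23 in wild-type arrays (-0.06 ± 0.24, adjusted p = 0.89). Dnah9, the heavy chain of the outer part of the airway cilium, differed by -0.13 ± 0.31 (adjusted p = 0.83).

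Radial spokes reach from the doublets to the central pair. Their 5 genes all had a lower mean in transgenic lungs, and none passed, with 2 lower at an unadjusted p under 0.05. Rsph1, a protein of the spoke head, was 6.56 and 7.17 in transgenic arrays, against 7.33, 8.68, 7.52 and 7.17 in wild-type arrays. The lowest wild-type value lay only just above the higher transgenic one, and the difference of -0.81 ± 0.39 did not pass (adjusted p = 0.19). The spoke head genes Rsph4a and Rsph9 also had no overlap between the groups, with differences of -0.66 ± 0.23 (adjusted p = 0.083) and -0.38 ± 0.16 (0.15). Nme5, a spoke-associated kinase-like protein, differed by -0.51 ± 0.28. Lrrc23, another spoke protein, was 6.01 and 6.38 in transgenic arrays, against 6.27, 7.35, 6.53 and 6.02 in wild-type arrays (-0.34 ± 0.33, adjusted p = 0.52).

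Ccdc39 and Ccdc40 form the ruler that sets the spacing of spokes and inner arms along a doublet. Ccdc39 was 6.57 and 6.63 in transgenic lungs, against 7.09, 7.33, 7.51 and 7.39 in wild-type lungs. It was the only one of the 21 axoneme genes that fell, by 0.73 on the log2 scale (SE 0.13, adjusted p = 0.0074), or 1.66-fold. Leaving out transgenic replicate 1 ended the call (adjusted p = 0.071). Its partner Ccdc40 was 5.27 and 5.45 in transgenic arrays, against 5.99, 6.97, 5.27 and 5.33 in wild-type arrays. Wild-type replicates 3 and 4 matched the transgenic arrays, and the difference was -0.53 ± 0.43 (adjusted p = 0.44).

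No gene of the central pair passed, nor did any at an unadjusted p under 0.05 (limma). Spag16 was 5.27 and 6.02 in transgenic arrays, against 6.00, 6.83, 6.05 and 6.08 in wild-type arrays. The wild-type values were nearly alike but for replicate 2, and the difference was -0.59 ± 0.28 (adjusted p = 0.18). Spef2 differed by -0.39 ± 0.25 (adjusted p = 0.32) and the large protein gene Hydin by -0.23 ± 0.26 (0.60). Spag6 read 2.68 and 2.69 in transgenic arrays, against 2.87, 2.77, 2.62 and 2.74 in wild-type arrays, near the lowest value of any array (2.297). Spag6l, a separate gene for which RefSeq also lists the older name Spag6, is given here after its values were seen. It was 4.60 and 4.77 in transgenic lungs, against 5.41, 6.11, 5.63 and 5.29 in wild-type lungs, and fell by 0.92 (SE 0.21, adjusted p = 0.019).

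Of 8 genes of doublets and tubulin, 1 fell. Tppp3, which promotes tubulin polymerization and is also made outside ciliated cells, was 10.33 and 10.36 in transgenic lungs. It was 11.37, 11.58, 11.56 and 11.47 in wild-type lungs. All transgenic values lay well below all wild-type values, the wild-type arrays differed little (SD 0.096, n = 4), and the gene fell 2.21-fold (-1.14 ± 0.11, adjusted p = 0.0003). Enkur, a protein inside the doublets, was 6.00 and 6.55 in transgenic arrays, against 6.85, 7.67, 7.07 and 6.75 in wild-type arrays. The groups did not overlap, and the difference of -0.81 ± 0.26 did not pass (adjusted p = 0.066). The tektins are filament proteins in the doublet wall. Tekt1, Tekt2 and Tekt4 differed by -0.71 ± 0.34, -0.53 ± 0.29 and -0.68 ± 0.35, with adjusted p-values of 0.19, 0.25 and 0.22. The doublet proteins Mns1 and Efhc2 differed by -0.61 ± 0.29 (adjusted p = 0.19) and -0.19 ± 0.15 (0.44), Efhc2 being 3.98 and 4.33 in transgenic arrays, against 4.22, 4.42, 4.57 and 4.18 in wild-type arrays. Tubb4b, a beta-tubulin of cilia and of many other cells, differed by -0.30 ± 0.20 (adjusted p = 0.36).

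Of 7 further genes 1 fell. Mlf1, a gene first known from myeloid leukaemia, was 6.12 and 6.36 in transgenic lungs, against 7.16, 7.83, 7.36 and 7.65 in wild-type lungs. Its fall of 2.40-fold (-1.26 ± 0.19, adjusted p = 0.0029) was the largest of the 40, and the groups were far apart. Cdhr3 and Cdhr4 encode cadherin-related membrane proteins, of which human CDHR3 is a receptor for rhinovirus C. Cdhr3 differed by -0.64 ± 0.22 with no overlap (adjusted p = 0.082). Cdhr4 was the only member with a higher mean in transgenic lungs. It was 7.48 and 8.31 there, against 7.38, 8.61, 7.60 and 7.33 in wild-type lungs (0.17 ± 0.37, adjusted p = 0.80). Its second probe set differed the other way (-0.51 ± 0.38). The adenylate kinase genes Ak7 and Ak8, which serve the energy supply of the axoneme, differed by -0.29 ± 0.23 and -0.50 ± 0.30, the coiled-coil gene Ccdc113 by -0.57 ± 0.39 and the calcium-binding protein gene Capsl by -0.37 ± 0.25, with adjusted p-values from 0.29 to 0.44.

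**Figure D2:**
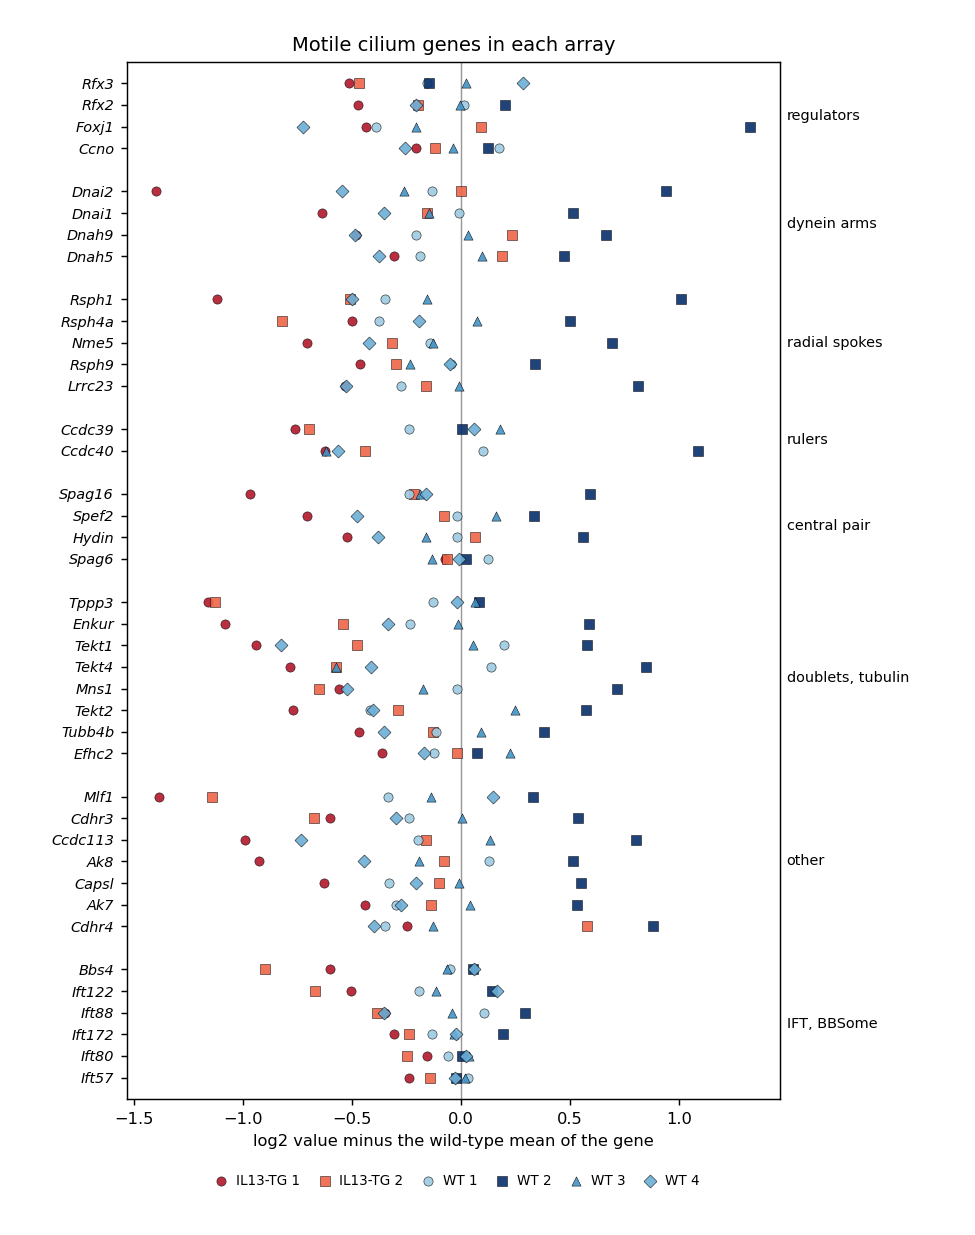
Log2 value of each motile cilium gene in each of the 6 arrays, minus the wild-type mean of that gene (x axis), with the genes grouped by role. Wild-type replicate 2 (dark squares) lies farthest right of the wild-type arrays for 31 of 40 genes, and transgenic replicate 1 (dark circles) farthest left of all 6 arrays for 27.

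Of the 6 genes of intraflagellar transport and the BBSome, 2 fell. Bbs4, a subunit of the BBSome that carries membrane proteins in and out of cilia, was 6.92 and 6.62 in transgenic lungs, against 7.47, 7.57, 7.46 and 7.58 in wild-type lungs. It fell by 0.75 (SE 0.12, adjusted p = 0.0042), or 1.68-fold, from wild-type values that were close together. Ift122, of the complex that returns cargo from the tip, was 6.96 and 6.79 in transgenic lungs, against 7.27, 7.61, 7.35 and 7.63 in wild-type lungs. It fell by 0.59 (SE 0.14, adjusted p = 0.021), and it no longer passed when either transgenic array was left out (adjusted p = 0.081 for replicate 1 and 0.15 for replicate 2). Ift57, Ift80, Ift88 and Ift172 belong to the complex that carries cargo to the tip, and none of them passed. Ift57 was 7.78 and 7.87 in transgenic arrays, against 8.05, 7.99, 8.03 and 7.99 in wild-type arrays. The groups did not overlap, but the difference was small (-0.19 ± 0.10, adjusted p = 0.23). Ift80 and Ift172 likewise had no overlap, at -0.20 ± 0.10 (adjusted p = 0.21) and -0.28 ± 0.12 (0.16), and Ift88 differed by -0.37 ± 0.17 (0.18).

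Among the members, the axoneme genes varied widely between wild-type animals and the 6 transport and BBSome genes little. The 21 axoneme genes (dynein arms, spokes, rulers, central pair and doublet proteins, without Tppp3 and Tubb4b) had a median difference of -0.53 and the 6 transport and BBSome genes one of -0.32, a contrast that was not tested. The median SD over the 4 wild-type arrays was 0.41 for axoneme genes and 0.10 for transport genes, against 0.15 over all genes. Of the axoneme genes 17 lay at or above the 90th percentile of all genes by wild-type SD, and of the transport genes 0. The median SE of a difference was 0.28 for axoneme genes and 0.12 for transport genes. Both transgenic values lay below the wild-type range for 7 of 21 axoneme genes (33.3%) and 5 of 6 transport genes (83.3%), against the 22.0% of all genes. In the longer lists of axoneme and transport genes outside the members, taken up below, the shares were 46.0% and 47.2%.

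**Figure D3:**
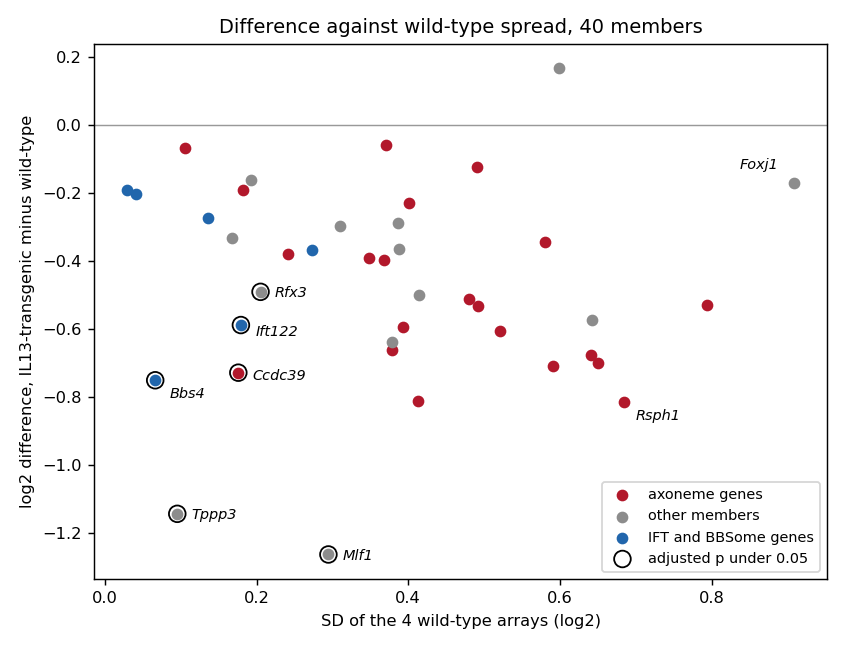
Log2 difference, IL13-transgenic minus wild-type (y axis), against the SD of the 4 wild-type arrays (x axis), 1 point a gene. The 6 circled genes past the threshold have an SD below 0.3, whereas Foxj1 has the largest SD (0.91) and Rsph1 one of 0.69 beside a difference of -0.81.

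Wild-type replicate 2 had the highest values of most cilium genes. It was the highest wild-type array for 31 of 40 members (77.5%), where the share over all genes was 25.0%. For axoneme genes it lay above the mean of the other 3 wild-type arrays by a median of 0.77, for transport genes by 0.13. Foxj1 stood 1.77 above, Ccdc40 1.45 and Rsph1 1.34. Without this array the median difference of the axoneme genes was -0.28 and that of the transport genes -0.24, and 36 of 40 differences were below 0. The differences of Foxj1 (0.27), Dnah5 (0.097), Dnah9 (0.096) and Cdhr4 (0.46) were then above 0. All 6 members that fell also passed without it, together with Cdhr3 (adjusted p = 0.048, limma).

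The transgenic arrays differed between themselves as well. Transgenic replicate 2 was above replicate 1 for 19 of 21 axoneme genes (median gap 0.46) and for 2 of 6 transport genes (median gap -0.065). Relative to the wild-type mean, the median axoneme gene stood at -0.64 and -0.29 in transgenic replicates 1 and 2. In wild-type replicates 1 to 4 it stood at -0.13, 0.57, -0.13 and -0.40, so that wild-type replicate 4 lay below transgenic replicate 2. The median transport gene stood at -0.33 and -0.32 in the transgenic arrays, against -0.055, 0.098, -0.038 and -0.0022 in the wild-type arrays, with no overlap. Without transgenic replicate 1 the axoneme median was -0.29 and the transport median -0.32.

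**Figure D4:**
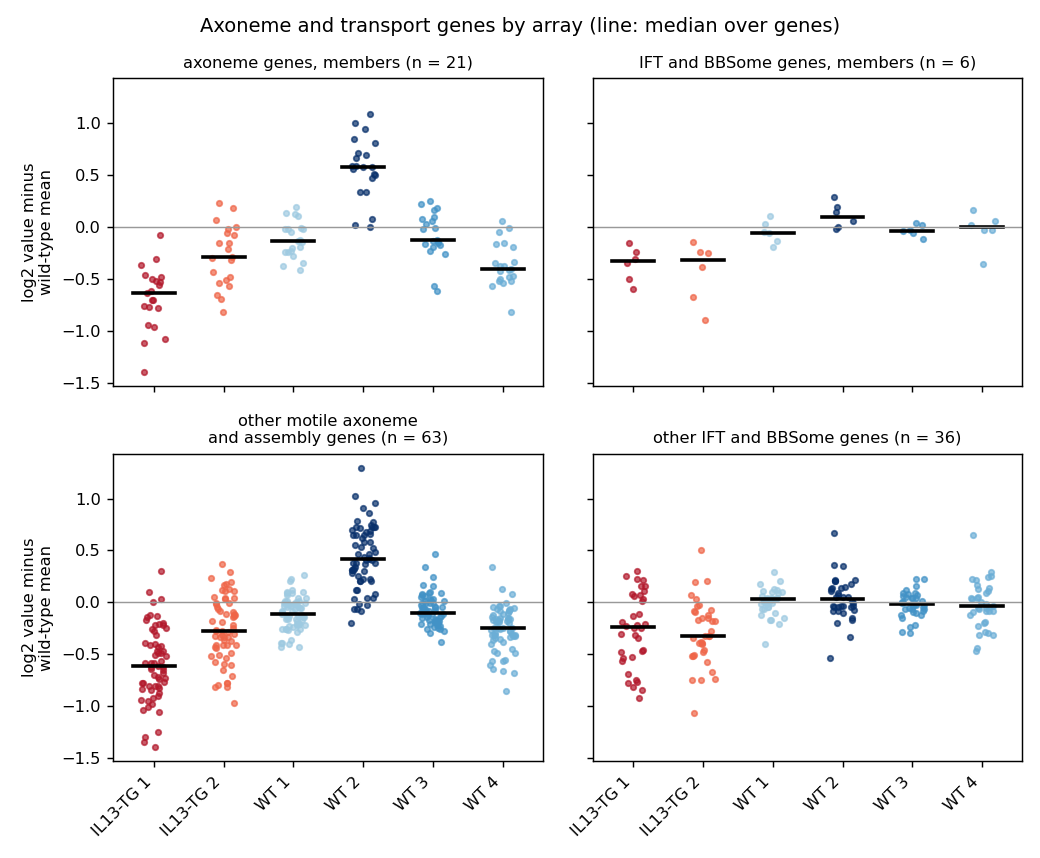
Log2 value minus the wild-type mean of the gene (y axis) in each array for axoneme and transport genes among the members (top) and outside them (bottom), 1 point a gene with the median as a line. Wild-type replicate 2 stands up in both axoneme panels (medians 0.57 and 0.41) and hardly in the transport panels (0.098 and 0.032).

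Cilium genes outside the 40 were taken from 3 lists. Of 63 other genes of the motile axoneme and its assembly (91 listed), 7 fell, 0 rose and 56 did not pass (limma; 22 lower and 1 higher at an unadjusted p under 0.05), a share of 11.1% against the 10.5% of all genes that fell. At an unadjusted p under 0.05 in limma, 3226 of all 18193 genes were lower and 2604 higher. The median difference of the 63 was -0.48, and 57 were below 0. Their median wild-type SD was 0.32, and 32 lay at or above the 90th percentile of all genes. The falls were led by Spa17, a protein of radial spokes and sperm (-1.16 ± 0.19, adjusted p = 0.0046), Fam183b (-1.05 ± 0.27, 0.028) and Dnaaf4, which helps to assemble dynein arms in the cytoplasm (-0.88 ± 0.19, 0.016). Wild-type replicate 2 was the highest wild-type array for 52 of the 63 (82.5%), and transgenic replicate 1 the lowest of all 6 for 48 (76.2%). Fewer genes of this list passed as lower when either transgenic replicate was left out, and fewer of all genes passed then too. Without wild-type replicate 4, 11 passed as lower, and 3558 of all genes passed in either direction.

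Of 36 other transport and BBSome genes (43 listed) 9 fell, 0 rose and 27 did not pass (limma; 14 lower and 0 higher at an unadjusted p under 0.05), a share of 25.0% beside the 10.5% of all genes. Their median difference was -0.24, and 9 differences were above 0. Both transgenic values lay below the wild-type range for 17 of the 36 (47.2%, against 22.0% of all genes). They lay above it for 3, where 19.7% of all genes did. The median wild-type SD of the 36 was 0.15, as it was over all genes, and 5 lay at or above the 90th percentile. Bbs2, another BBSome subunit, fell by 0.997 (SE 0.13, adjusted p = 0.0017), Ift43, of the same complex as Ift122, by 0.67 (SE 0.17, adjusted p = 0.03) and Kifap3, which links the motor kinesin-2 to its cargo, by 0.63 (SE 0.12, adjusted p = 0.0086). Wild-type replicate 2 was the highest wild-type array for 16 of them (44.4%). Here too fewer genes passed when either transgenic array was left out.

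Genes that start the multiciliated programme, with centriole and tubulin genes, showed no common direction. Of 24 measured (28 listed), 1 rose, 0 fell and 23 did not pass (limma; 3 higher and 4 lower at an unadjusted p under 0.05), with a median of 0.021. Over all 18193 genes 8.43% rose and 10.5% fell. In limma 2604 of these were higher and 3226 lower at an unadjusted p under 0.05. The gene that rose, Stil, is needed to build centrioles in dividing cells (0.61 ± 0.12, adjusted p = 0.0085). It did not pass without transgenic replicate 2, and 2 genes passed as higher without wild-type replicate 4.

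Markers of other airway and lung cells were read in the same arrays, where 19.0% of all genes passed, 10.5% as lower and 8.43% as higher. Club cell markers had 8 of 14 genes lower, with a median difference of -1.09, led by the paraoxonase gene Pon1 (-3.59 ± 0.34, adjusted p = 0.0003) and the secretoglobin gene Scgb3a1 (-2.88 ± 0.23, 0.00011). Scgb1a1, the CC10 gene itself, did not pass (-0.19 ± 0.14, adjusted p = 0.40, limma), nor did Hp, the haptoglobin gene, whose difference was above 0 (0.80 ± 0.36, 0.16). Scgb1a1 averaged 14.97 over the 6 arrays, near the highest value of any array (15.192). Markers of the airway epithelium as a whole had 1 higher and 2 lower of 12, with a median of -0.18, led by Foxa1 (-0.89 ± 0.13, adjusted p = 0.0022) and Cldn4 (0.88 ± 0.17, 0.0087). Of 13 goblet cell markers 11 had a difference above 0, with a median of 0.27. Of these markers 1 rose, Slc26a4 (6.27 ± 0.42, adjusted p = 4.5e-05), and 1 fell, Tff2 (-1.61 ± 0.45, 0.039), with 6 higher and 1 lower at an unadjusted p under 0.05. Clca1 (4.10 ± 1.57, adjusted p = 0.11, limma) and Gp2 (1.48 ± 0.52, 0.087) did not pass. Clca1 was 10.98 and 11.81 in transgenic lungs, against 4.49, 11.44, 5.90 and 7.37 in wild-type lungs. Muc5ac, Muc5b, Spdef and Ern2 of the same list differed little (0.032, -0.0046, 0.052 and 0.078) and did not pass. Like the axoneme genes, the goblet list was highest of the wild-type arrays in replicate 2. Mean levels of the goblet list were 6.81 and 7.09 in transgenic lungs, against 5.54, 6.85, 5.70 and 5.87 in wild-type lungs. Club cell markers averaged 9.62 and 9.96 in transgenic lungs, against 10.93, 11.27, 10.99 and 10.70 in wild-type lungs, again highest in replicate 2 and lowest in replicate 4 among the wild-type animals. The part of any of these in the differences of the cilium genes was not tested.

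Some lists of other lung cells moved too, and others had few or no genes past the threshold. Over all genes 19.0% passed. Of 10 macrophage markers 9 rose and 0 fell, with a median difference of 3.42, led by Gpnmb (4.68 ± 0.14) and Marco (3.66 ± 0.20). Their mean level was 10.63 and 10.64 in transgenic lungs, against 7.54 to 7.60 in wild-type lungs. Of 8 endothelial markers 3 fell (median -0.70), led by Tek (-1.31 ± 0.16) and Cdh5 (-1.12 ± 0.10). Of 9 alveolar type I markers 7 fell (median -0.70), led by Akap5 (-1.02 ± 0.13) and Rtkn2 (-0.90 ± 0.14). Of 8 alveolar type II markers 1 rose, Cxcl15 (0.89 ± 0.13), and 0 fell (median 0.044). Heart muscle markers averaged 7.13 and 4.96 in transgenic lungs, against 8.52, 7.82, 8.27 and 10.02 in wild-type lungs. Of these 5 of 8 fell (median -2.80), led by Myh6 (-3.71 ± 0.89) and Tnnt2 (-3.07 ± 0.80). Adipose markers averaged 7.10 and 4.49 in transgenic lungs, against 8.37, 7.61, 8.39 and 10.02 in wild-type lungs. Of these 3 of 6 fell (median -2.90), led by Car3 (-4.52 ± 1.33) and Thrsp (-2.96 ± 0.75). Wild-type replicate 4, the lowest wild-type array for axoneme genes, was the highest for heart and fat genes. Both transgenic arrays, with axoneme medians of -0.64 and -0.29, lay below every wild-type array for heart and fat genes. Of 7 basal cell markers 0 passed (limma, 1 higher and 1 lower at an unadjusted p under 0.05), with a median of 0.0039 and the largest difference in Dapl1 (-0.68 ± 0.21, adjusted p = 0.055). Of 8 lymphocyte markers 0 passed (limma, 1 higher and 0 lower at an unadjusted p under 0.05), with a median of 0.11 and the largest difference in Cd79b (0.48 ± 0.15, adjusted p = 0.06). Of 5 neuroendocrine markers 1 fell, Resp18 (-0.54 ± 0.16), with a median of -0.35. The part of these shifts in the cilium differences was not tested.

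**Figure D5:**
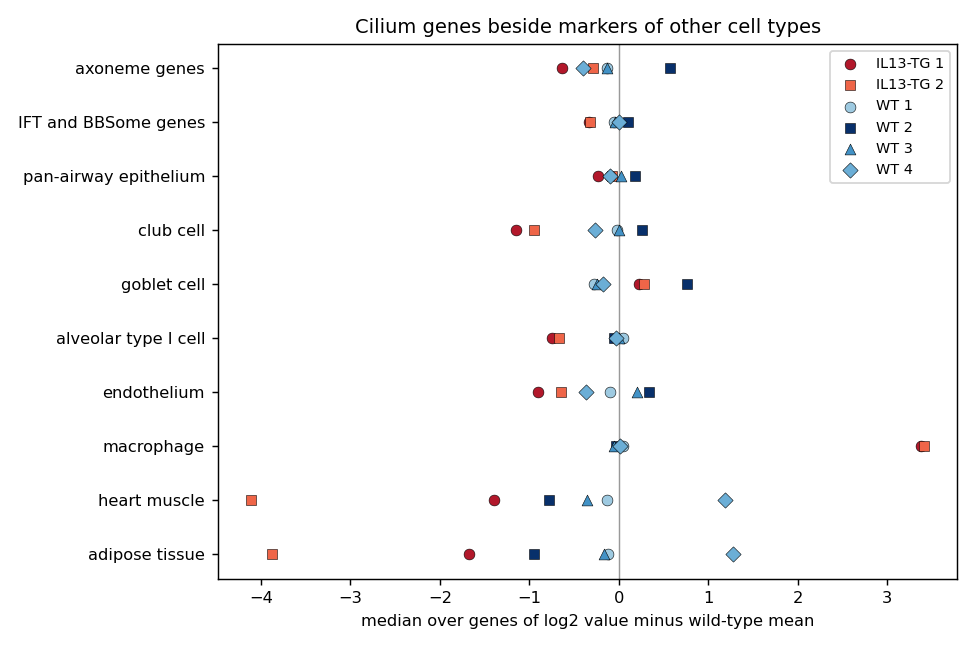
Median over genes of the log2 value minus the wild-type mean (x axis) for axoneme and transport genes and for markers of other cell types, 1 point an array. Macrophage markers stand at 3.38 and 3.41 in the transgenic arrays, and heart and fat markers spread most between arrays.

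Probe sets of 1 gene did not always move together. The 40 genes had 67 probe sets, of which 7 passed as lower and 1 as higher when all 34945 were tested one by one. The 7 belonged to 5 genes. Bbs4 had 4 probe sets, all with negative differences, and 3 of them passed. For 12 of the 15 genes with several probe sets, the probe sets differed in sign. In Ccdc39 the probe set used averaged 7.09 over the 6 arrays and the other 2 averaged 3.20 and 2.94, and the 3 differed by -0.73, -0.37 and 0.14 between the groups. A second probe set of Dnah9 passed as higher (0.63 ± 0.10, adjusted p = 0.0059, over all probe sets). Its mean of 3.47 was not far above the lowest value of any array. In wild-type lungs 8 of the 40 genes averaged under 5, as did 5821 of all 18193 genes. By the suffix of their names, the probe sets used for Bbs4, Ccdc39, Ift122, Cdhr4, Dnai1, Dnai2, Mlf1, Tekt1, Lrrc23 and Ift80 are of kinds that can match more than 1 transcript, those of the last 4 several transcripts of 1 gene.

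In the authors' deposited table, which holds 1 q-value a probe set, Tppp3 was the only one of the 40 under 0.05 (q-value 0.0325), where 1.88% of all probe sets were. Ccdc39, Mlf1 and Ift122 followed in the authors' deposited table with q-values of 0.0724, 0.0807 and 0.0898. Rfx3 and Bbs4, the other members past the limma threshold, had q-values of 0.1317 and 0.1882. Ift172, which did not pass in limma, had 0.1391.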

How the data were processed

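Total RNA of each lobe was extracted with TRIzol, labelled with biotin and read on an Affymetrix array. The log2 values of 45037 probe sets are those deposited by the authors, made with RMA per the submitters' processing notes, which name no version. A table deposited by the authors gives a q-value for each probe set, per the file headers; which test lies behind it is not stated in the sources. It also has 6 single-array columns that match no sample label and were left out. Of the probe sets, 34945 have 1 gene symbol, 932 several and 9160 none, and RefSeq gave a current symbol by Entrez ID for 34741. For a gene with several probe sets the brightest, by its mean over all arrays, was taken, which gave 18193 genes.

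The groups were compared by limma 3.58.1 (R 4.3.3, lmFit and eBayes, no covariate, moderated SE), with Benjamini-Hochberg adjustment over all genes. The code was tested on simulated data. Samples are labelled biological replicates. The p-values measure the spread among these 6 animals only, and moderation draws the variance of each gene toward that of all genes. The number of animals limits precision. Array medians lay between 5.28 and 5.30. Members and lists were chosen with earlier results of these data known, so lists are described by counts and medians without a test. Each array's value is printed for members past the threshold, for the largest and smallest difference within a role and for members with an array apart, and of other lists the genes with the largest changes past the threshold are named, or the largest change where none passed. Scgb1a1, Hp, Clca1, Gp2, Muc5ac, Muc5b, Spdef and Ern2 were named after their values were seen. Foxj1, Enkur and Spag6l were added to these after their values were seen. The alternatives tried were quantile normalization, median centring, 2 filters on low values, 3 variance models, other choices of probe set, a replicate block, and the removal of single arrays, where a lone transgenic array is assumed to vary as the wild-type ones do. Plots were made in Python 3.11.15 (matplotlib 3.10.9).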

Additional observations from a re-analysis of the deposited data

Results flagged for a closer look

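Spag16 stood apart in 1 wild-type array. Wild-type replicate 2 was 6.83, against 6.00 to 6.08 in the other 3, and the gap to the nearest made up 0.905 of the whole range of the wild-type values, more than Dixon's 95% limit for 4 samples allows. The mean level of the 6 transport and BBSome genes was also apart in that array, at 7.70 against 7.54 to 7.56 in the other wild-type arrays, with a ratio of 0.858. That gap was small in log2 units, and the ratio depends on how close the other arrays lie. The same array was highest, with ratios that did not pass, for the mean of the axoneme genes (0.698), the mean of all 40 genes (0.70) and Foxj1 (0.746). Chance passes this limit in about 1 of 20 groups, and 44 were examined, of which 2 passed.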

How the results depend on the processing

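Tppp3 passed the threshold in all 16 alternatives, Mlf1 and Bbs4 in 15 of 16, Ccdc39 in 12, Ift122 in 11 and Rfx3 in 5. Over all genes 3448 passed in the main fit and 1528 without moderation. With the mean of all probe sets of a gene 3145 passed, and with the probe set of the lowest mean 1813. The count of 6 members that fell was 2, 3 and 2 in these 3 alternatives, and 1 rose in the last (Dnah9). When 1 array was left out it ran from 3 to 10. The counts of the other axoneme, transport and programme genes that fell ran from 0 to 11, 3 to 9 and 0 to 0, and those that rose from 0 to 0, 0 to 0 and 0 to 2. The medians of all members, axoneme genes and transport genes ran from -0.54 to -0.23, from -0.65 to -0.28 and from -0.39 to -0.24. The differences of Foxj1 (-0.44 to 0.27), Dnah5 (-0.31 to 0.19), Dnah9 (-0.48 to 0.23), Hydin (-0.52 to 0.063) and Cdhr4 (-0.25 to 0.58) changed sign among these. With the mean of probe sets the sign turned for Rfx2 (0.029), Dnah9 (0.25), Cdhr4 (-0.17), Ift57 (0.034) and Tubb4b (0.0048), and with the lowest probe set, which is often near the floor, for Rfx2 (0.33), Rfx3 (0.004), Dnah9 (0.63), Dnai2 (0.034), Ccdc39 (0.14), Spag16 (0.020), Hydin (0.23), Cdhr4 (-0.51), Ift57 (0.26) and Ift80 (0.013). The cause was not tested. The labels number the replicates of both genotypes, but nothing pairs the animals. The deviations of same-numbered arrays correlated at -0.076 for replicate 1 and 0.27 for replicate 2, across genes. A block on the replicate number compares only replicates 1 and 2 of each genotype. It leaves 1 degree of freedom to measure the spread, so its calls rest largely on the moderation. In that fit 23 members fell, with 36 of the other axoneme genes and 1 of the programme genes. Of all 18193 genes 3759 passed in either direction, against 3448 without the block. The transport median was -0.43, and Cdhr4 turned to -0.099.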
